A study of Mus musculus with 10 samples.

Results

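The serpins are a superfamily of proteins that share one fold, and most of them inhibit serine or cysteine proteases. All 74 non-control probes whose gene name in the array files starts with Serpin were taken, which gave 56 gene names in clades a to i among 41174 probes on the array. The family was singled out with its genotype values in view: Serpina1b and Serpina1c were among the lowest and Serpina3c among the highest in +/L in an earlier pass over these samples. Members were thus selected on the +/L against +/+ contrast, and genotype differences of serpins are described here with no test. Detection, the spread among tumours and the position in the genome were not used in the choice.

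An inhibitory serpin acts as a bait: the protease cuts its exposed reactive loop, the serpin folds around the cut, and both proteins stay locked together. Clade a holds secreted plasma inhibitors made mainly by the liver, such as α1-antitrypsin (Serpina1) and α1-antichymotrypsin (Serpina3), and mice carry several copies of each. Clade b members lack a signal peptide and mostly protect the inside of cells, among them leukocytes, from granule and lysosomal proteases. Other clades hold antithrombin (c), heparin cofactor II (d), protease nexin 1 (e), pigment epithelium-derived factor and α2-antiplasmin (f), the C1 inhibitor (g), the collagen chaperone Hsp47 (h) and neuroserpin (i).

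The samples were spontaneous lymphomas of 10 mice, 1 single-colour Agilent array each, 5 from mice heterozygous for the LIP allele of C/EBPb (+/L) and 5 from wild-type mice (+/+). C/EBPb is a transcription factor, and LIP is its truncated form, which binds DNA but lacks the activation domains. The +/L tumours came from mice 20, 866, 688, 23 and 517, aged 21, 11, 18, 20 and 20 months, and the +/+ tumours from mice 40, 11, 101, 17 and 19, aged 26, 29, 26.5, 20 and 23 months. The +/L mice were younger (18.0 ± 4.06 against 24.9 ± 3.47 months, SD, n = 5), so beside a printed difference the value with age as a covariate is given where the covariate turned the sign or moved it by over 1.5 times. The pieces were whole tumours, so a lower value can mean fewer cells of a type or less RNA per cell, and these cannot be told apart. B cell markers were detected in all tumours (10 of 10 listed genes) and T cell markers likewise (9 of 9). Sex-linked transcripts did not match the sex labels of mice 20 and 11, and results are also given without both. Slide numbers in the array headers and in the sample descriptions disagreed for mice 866 and 17. Between 48.0% and 66.7% of spots were well above background on an array.

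The sequences of the Serpina1b and Serpina1c probes, which had the most negative genotype differences among the kept serpin probes, are shown first. The files list at least 1 of them for several near-identical genes. The Serpina1b probe (chr12:104968689-104970188, mm9, a span longer than the probe itself) and the Serpina1c probe (chr12:105137263-105137322, mm9) are 60 bases each, and both have at least 1 reading frame with no stop. Exon and intron annotation of the mm9 build was not used here.
Serpina1b: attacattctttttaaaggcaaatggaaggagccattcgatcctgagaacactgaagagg
Serpina1c: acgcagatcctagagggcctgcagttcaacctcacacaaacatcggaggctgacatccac
The probes lie in different parts of the transcript, sharing no run longer than 6 bases. The files list the Serpina1c probe for Serpina1b, Serpina1c, Serpina1d and Serpina1e, and the Serpina1d probe for Serpina1c, Serpina1d and Serpina1e. For the Serpina1b probe no listed gene was matched, and whether it reads other copies was not tested. These 3 probes therefore do not count as 3 independent genes, and none of the 74 probes was named for Serpina1a or Serpina1e.

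The regions before the start sites are shown for the Serpina1 copies, which were lower in +/L, for Serpina3c, which was higher, and for its close relative Serpina3n, whose groups overlapped. They are the 250 bases before the RefSeq start in GRCm38.p6, in lower case. Capitals mark matches on either strand to TTGCNNAA (the C/EBP core), GTTAAT (the left arm of the HNF1 consensus) and TATAAA. A match is a description of letters, not a site.
Serpina1b, minus strand, chr12:103738190-103738439: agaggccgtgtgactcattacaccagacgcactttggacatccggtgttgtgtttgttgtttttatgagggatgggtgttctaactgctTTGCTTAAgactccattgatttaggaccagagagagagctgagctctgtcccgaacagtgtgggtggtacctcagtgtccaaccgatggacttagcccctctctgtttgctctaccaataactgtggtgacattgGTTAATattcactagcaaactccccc
Serpina1c, minus strand, chr12:103904951-103905200: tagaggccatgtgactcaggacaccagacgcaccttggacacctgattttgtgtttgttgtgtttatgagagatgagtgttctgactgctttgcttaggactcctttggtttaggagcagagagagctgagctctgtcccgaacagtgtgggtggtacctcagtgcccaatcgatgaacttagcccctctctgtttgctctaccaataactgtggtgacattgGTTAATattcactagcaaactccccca
Serpina1d, minus strand, chr12:103773634-103773883: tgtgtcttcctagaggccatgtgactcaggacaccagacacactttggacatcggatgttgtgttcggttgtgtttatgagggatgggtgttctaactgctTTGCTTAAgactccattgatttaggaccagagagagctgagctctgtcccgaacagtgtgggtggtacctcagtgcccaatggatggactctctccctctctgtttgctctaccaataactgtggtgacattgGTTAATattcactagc
Serpina3c, minus strand, chr12:104153873-104154122: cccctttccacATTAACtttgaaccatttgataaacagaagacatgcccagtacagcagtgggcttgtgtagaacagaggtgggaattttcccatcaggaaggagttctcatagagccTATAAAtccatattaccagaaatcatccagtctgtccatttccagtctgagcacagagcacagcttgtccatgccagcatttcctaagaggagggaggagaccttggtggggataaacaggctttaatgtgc
Serpina3n, plus strand, chr12:104406458-104406707: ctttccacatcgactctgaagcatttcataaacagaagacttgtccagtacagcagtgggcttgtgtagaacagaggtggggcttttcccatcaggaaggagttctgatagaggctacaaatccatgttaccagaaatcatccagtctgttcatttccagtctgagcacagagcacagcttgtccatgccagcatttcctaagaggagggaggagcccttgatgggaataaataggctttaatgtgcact
The Serpina1b and Serpina1d regions were 92.5% identical over 241 aligned columns, and both held TTGCTTAA, 161 and 149 bases before the start. The Serpina1c region, 91.6% identical to that of Serpina1b over 250 columns, held no match to TTGCNNAA. All 3 held GTTAAT close to the start, at 26, 27 and 16 bases, and all 5 Serpina1 copies shared a run of 55 bases around it. The Serpina3c and Serpina3n regions were 92.7% identical over 247 columns, yet only Serpina3c held TATAAA, 132 bases before the start, and a match to the left arm of HNF1 (ATTAAC) at 239 bases. Neither held TTGCNNAA. The region of Serpina3f, whose groups overlapped, was scanned but is not shown, and it held 2 matches to TTGCNNAA. That of Serpina3g held 0. Of 32851 RefSeq promoters cut to the same 250 bases, 9.56% held TTGCNNAA, 6.43% GTTAAT and 12.4% TATAAA. Serpina3m is named only.

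Most serpins were either detected in every tumour or in few. Of the 74 probes, 25 (33.8%) were well above background on all 10 arrays, for 22 genes, against 43.6% of all probes on the array. A further 19 probes (25.7%) reached that mark on no array, against 22.4% of all probes. For the genotype comparison 39 probes of 32 genes were kept by a rule of detection on at least 3 of 10 arrays.

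The clade b serpins detected in every tumour were all on chromosome 13. Mouse clade b genes lie in separate clusters on chromosomes 1 and 13. On chromosome 13, 8 of 17 clade b probes were well above background in all tumours, covering 7 of 13 genes, among them Serpinb1a, Serpinb6a, Serpinb6b and Serpinb9. On chromosome 1, 0 of 18 probes of 12 genes were detected in all tumours, and the most widely detected, Serpinb8, was on 9 arrays. These shares come from members that are close copies in part, and the difference was not tested. In clade a, all on chromosome 12 but 1 gene on X, 10 of 25 probes were detected in all tumours, and 7 on none, including Serpina12, Serpina1f, Serpina3a, Serpina3b and the thyroxine-binding globulin gene Serpina7. Serping1 and Serpinh1, the only members of clades g and h, were detected everywhere.

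**Figure D1:**
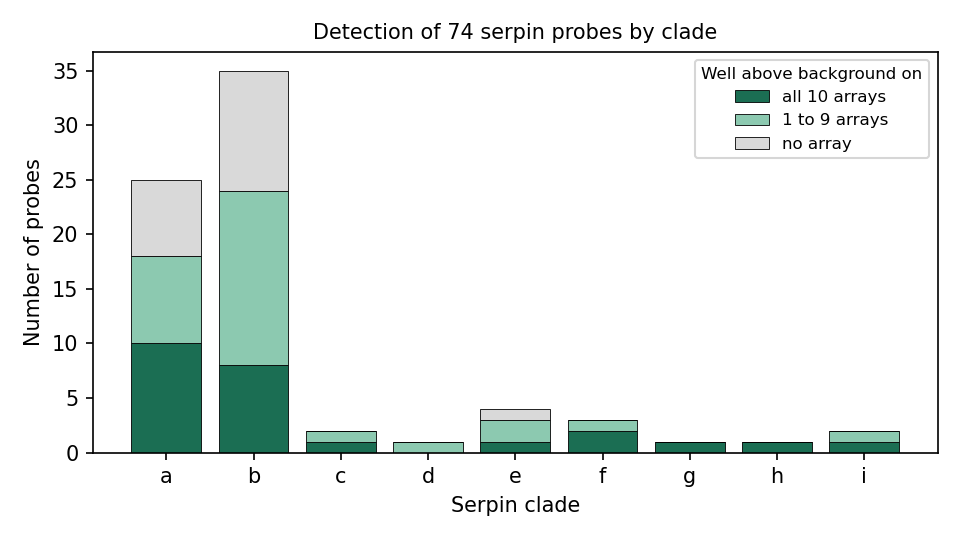
Number of serpin probes in each clade (horizontal axis) that were well above background on all 10 arrays, on 1 to 9, or on none. Clade b had the most probes, 35, of which 8 were detected on all 10 arrays and 11 on none.

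Serpins detected in all tumours included the inhibitor of complement C1, Hsp47 and the leukocyte inhibitors of clade b. Levels are log2 values scaled to the 75th percentile of each array's processed signals, so that 0 equals that percentile. Values of different probes are not comparable with each other, so each gene is read across tumours only. In every sentence below, +/L values run in the order mice 20, 866, 688, 23 and 517, and +/+ values in the order 40, 11, 101, 17 and 19.

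Genotype differences were large in a few clade a genes and small in most serpins. Over the whole array, 0 of 26410 kept probes (0%) passed an adjusted p of 0.05 in limma, and 7.96% had an unadjusted p under 0.05. The median difference of the 39 kept serpin probes was 0.03 (+/L minus +/+), beside 0.01 over all kept probes, and 24 of 39 (61.5%) differed by under 0.5 in either direction, beside 73.6% of all. Groups of 5 values did not overlap in 5 kept serpin probes, 2 higher and 3 lower in +/L, while 0.579% and 1.22% of all kept probes did so in those directions. Because the family was chosen on this contrast, these shares support nothing about the family.

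Serpina1 is the α1-antitrypsin family, and α1-antitrypsin is known as an inhibitor of neutrophil elastase. Whether each mouse copy has that activity was not examined here. Serpina1b read -0.72, -2.49, -1.31, -0.93 and -0.50 in +/L and 2.09, 0.93, 1.02, 1.62 and 2.45 in +/+ tumours, so every +/+ tumour lay above every +/L tumour, with 1.43 between the nearest. The +/L minus +/+ difference was -2.81 ± 0.43 (SE, limma), or 7.01-fold lower. Mouse 866, the youngest, was the lowest of all, and mouse 19 the highest. Serpina1c gave -0.73, -2.56, -1.44, -1.21 and -0.82 against 1.64, 0.58, 0.70, 1.41 and 2.05, a difference of -2.63 ± 0.40. Across the 10 tumours the deviations of the Serpina1b and Serpina1c probes from their own means differed by at most 0.24. Serpina1d gave 2.86, 1.92, 3.21, 4.03 and 4.14 against 5.86, 4.64, 5.0, 5.30 and 6.01, a difference of -2.13 ± 0.45. The 5 +/+ tumours ranked alike in all 3 probes: mouse 19, then 40, 17, 101 and 11.

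Serpina3 in mice is a family of copies of α1-antichymotrypsin, an inhibitor of cathepsin G and related proteases. Serpina3c read -2.83, -1.23, -3.07, -3.27 and -2.76 in +/L and -4.32, -6.74, -6.28, -5.78 and -5.58 in +/+ tumours, with no overlap. It was well above background in 4 of 5 +/L tumours and in 1 of 5 +/+, mouse 40, so the lower +/+ values are near the floor of the array. The difference was 3.11 ± 0.50. It was 0.69 after normexp and quantile normalisation, 0.45 in the authors' deposited value table, and 2.18 with age as a covariate. Serpina3m, detected in all 10, gave -0.83, -0.01, -1.49, -1.83 and -1.38 against -2.15, -4.33, -3.48, -3.40 and -2.80, a difference of 2.12 ± 0.45 (1.10 after normexp and quantile normalisation, 0.88 in the deposited value table and 1.36 with age as a covariate). In both probes mouse 866 was the highest and, among +/+, mouse 40.

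Other Serpina3 copies did not split by genotype. The second probe of Serpina3k, chosen after its values were seen, differed by 1.72 but was well above background in only 2 of 5 +/L tumours and 0 of 5 +/+, and the bound on +/L over +/+, taken from the lowest signal well above background, was 1.10-fold. Serpina3f, detected in all 10 by both probes, differed by -0.51 ± 0.37 and -0.34 ± 0.33 (-0.65 and -0.70 with age as a covariate), and its groups overlapped. Serpina3g, known from stimulated T cells, differed by -0.32 ± 0.26 (-0.64 with age as a covariate) and spanned only 1.25 in all, with values from 5.67 to 6.92. Its sign turned after normexp and quantile normalisation and in the deposited table. Serpina3n read 1.80, 2.81, 2.51, -0.09 and -0.16 against 1.49, 0.89, 1.51, -1.06 and 1.96, -1.06 to -0.09 in mice 23, 517 and 17 and 0.89 to 2.81 in the rest, with both genotypes on each side (difference 0.42, and 0.07 with age as a covariate).

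**Figure D2:**
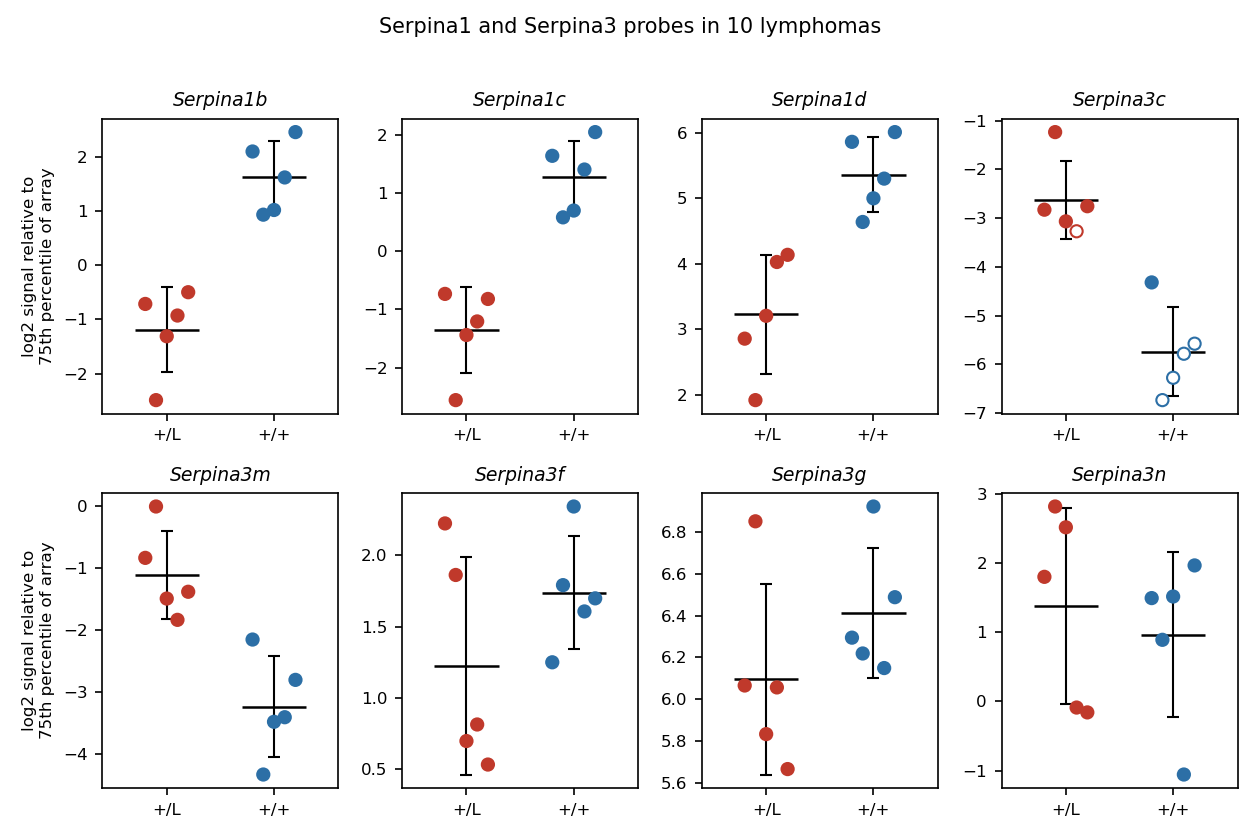
Each panel plots the log2 signal (relative to the 75th percentile of the array, vertical axis, own scale) of 1 probe in 5 +/L and 5 +/+ tumours. Points are tumours, filled where well above background and open where not; lines and bars give the mean and SD. In Serpina1b, Serpina1c, Serpina1d, Serpina3c and Serpina3m the groups do not overlap.

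These 5 probes sit in one cluster on chromosome 12, which spans 799 kb from Serpina10 to Serpina3n in mm9. Serpina1b, Serpina1d and Serpina1c lie 115, 149 and 284 kb into the cluster, and Serpina3c and Serpina3m 532 and 779 kb into it. Between them Serpina11 differed by 0.61 and Serpina9, a germinal centre B cell serpin, by -0.28 (0.80 and 0.13 with age as a covariate). Of 34 kept probes of 25 genes within 1 Mb on either side, 0 had groups that did not overlap, and their differences ran from -1.73 to 1.90. Over all kept probes 0.579% were higher and 1.22% lower without overlap, so 0 of 34 does not set the flanks apart. The 4 other kept probes inside the cluster had overlapping groups too. Among them is a probe of Serpina3j (difference 0.82), whose gene name in the array files does not start with Serpin.

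**Figure D3:**
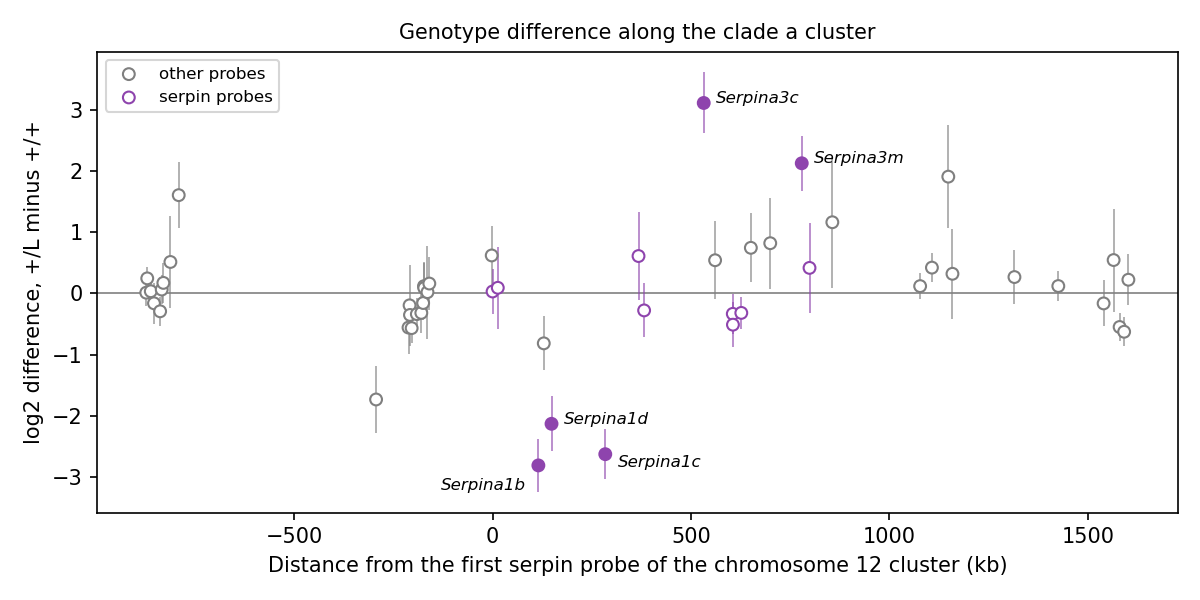
Difference between genotypes (+/L minus +/+, log2, bars are limma SE) of each kept probe against its distance from the first serpin probe of the chromosome 12 cluster. Filled points mark probes whose 5 +/L and 5 +/+ values do not overlap; the 5 such points are serpins, and open points of serpins and other genes overlap. The Serpina3j probe is plotted among the other probes.

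The differences in the 5 probes were also computed within slides and at matched age. Serpina1b differed by -2.87, -1.64 and -4.22 within the 3 slides of the headers, Serpina1c by -2.61, -1.60 and -3.93, and Serpina1d by -2.55, -0.56 and -3.58. Serpina3c differed by 2.10, 3.72 and 4.69, and Serpina3m by 1.62, 2.72 and 3.13. In each set the second value rests on mouse 11 as the only +/+ tumour of its slide. The third value rests on mouse 866 as the only +/L tumour. By the sample descriptions, the slide of mice 101, 17 and 19 held no +/L tumour. With age as a covariate the first 3 were -2.35, -2.25 and -1.68. Mouse 17, the +/+ mouse aged 20 months, had 1.62 for Serpina1b, against -0.93 and -0.50 in the +/L mice 23 and 517 of the same age, and -5.78 for Serpina3c against -3.27 and -2.76. Without mice 20 and 11 the 5 differences were -3.10, -2.95, -2.22, 2.91 and 1.78.

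Markers of other cell types were read in the same tumours, and no listed marker passed an adjusted p of 0.05 in limma. Of 16 hepatocyte markers between 3 and 12 were well above background in +/L tumours and between 3 and 8 in +/+, and of the 8 kept 3 were higher and 5 lower in +/L (median difference -0.13). Fga, Ttr and Apoh were not well above background in any tumour, Alb was so in 2 of 5 +/L and 0 of 5 +/+, and Apoa2 in 1 of 5 +/L and 3 of 5 +/+. The summed hepatocyte level, on a linear scale relative to the 75th percentile, was 6.32 to 30.9 in +/L and 5.46 to 62.5 in +/+. This sum was carried mainly by Hp and Trf. In mouse 101, with 62.5, Hp read 5.87 and Trf 1.82 in log2, against -6.43 for Alb and -6.11 for Ttr. Macrophage markers had a median difference of -0.74, with 7 of 10 lower in +/L. Of the 10, 2 were lower in +/L with no overlap, and 5, in both directions, had an unadjusted p under 0.05 in limma. Over all kept probes 1.22% were lower without overlap and 7.96% had such a p. C1qa, C1qb and C1qc differed by -1.44, -1.58 and -1.33. The 3 markers higher in +/L were Cd163, Mrc1 and Marco, by 4.41, 2.58 and 1.79. Cd163 was well above background in 3 of 5 +/L and 0 of 5 +/+ tumours. The summed macrophage level was 259.9 to 811 against 564 to 883. In the next 4 lists no marker had groups that did not overlap, 3 in each had an unadjusted p under 0.05, and the summed levels of the genotypes overlapped. Neutrophil markers were higher in +/L in 10 of 10 (median difference 2.0, summed level 2.82 to 81.9 against 0.62 to 19.4), and adipocyte markers in 8 of 9 (2.46, 21.6 to 177 against 9.19 to 91.6). Mast cell and basophil markers were higher in 6 of 7 (1.75, 1.38 to 7.50 against 0.91 to 2.0), and mesothelial markers in 6 of 6 (1.85, 0.34 to 112 against 0.27 to 1.21, with 112 in mouse 20 and at most 1.54 in the other +/L tumours). The mesothelial list held the keratins Krt8, Krt18 and Krt19, and Krt8 and Krt18 carried most of its summed level in mouse 20. Pancreatic acinar markers were lower in 7 of 8, with a summed level of 0.37 to 1.18 in +/L, 6.91 and 2.17 in the +/+ mice 19 and 101, and 0.42 to 0.83 in the other 3 +/+ tumours. Median differences in the other lists of cell types lay between -0.49 and 0.20. Among these, 3 of 6 platelet and megakaryocyte markers had an unadjusted p under 0.05 in limma, in both directions and with overlapping groups. Pf4 and Itga2b were higher in +/L, by 1.33 and 1.32, and the other 4 were lower, Gp9 most (-1.26). The part of these cells in the serpin differences was not tested.

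Serping1 inhibits C1r, C1s and the contact proteases. It read 3.07, 4.69, 3.72, 3.41 and 2.37 in +/L and 3.80, 3.51, 2.89, 3.56 and 3.73 in +/+ tumours, and the groups overlapped (difference -0.05 ± 0.39). With age as a covariate the difference was -0.85. Serpinf1 (pigment epithelium-derived factor) gave 2.64, 2.89, 1.88, 2.06 and 1.84 against 2.60, 1.38, 1.96, 2.17 and 2.0, again overlapping (difference 0.24, and -0.20 with age as a covariate). Serpinf2, which inhibits plasmin, was detected in 6 of 10 tumours and highest in mouse 20 (-2.96); its difference of 0.58 was 1.39 with age as a covariate. Serpinh1, which binds newly made collagen chains in the ER, gave 1.88, 4.73, 3.83, 3.95 and 3.70 against 4.61, 3.79, 3.90, 5.24 and 4.07. Mouse 20 was the lowest, and the difference of -0.70 ± 0.50 became -1.83 with age as a covariate.

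Serpine2, protease nexin 1, which inhibits thrombin and urokinase, gave -2.87, -3.45, -4.68, -4.93 and -4.79 against -4.26, -3.53, -4.13, -4.72 and -3.61. The groups overlapped, and the lowest tumour was not well above background. Serpine3 was on 5 of 10 arrays, highest in mice 17 and 20, and its difference of -0.31 was -0.74 with age as a covariate.

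Antithrombin (Serpinc1) gave -1.24, -3.46, -3.32, -0.86 and -2.27 against -2.25, -1.53, -2.64, -1.56 and -3.43 with its probe of widest detection, and heparin cofactor II (Serpind1) -5.70, -3.10, -3.38, -3.91 and -5.72 against -5.53, -2.58, -1.46, -6.17 and -2.57. Serpind1 was well above background in 5 of 10 tumours and ranged over 4.71. The groups overlapped in both, and the Serpinc1 difference of 0.05 was 0.98 with age as a covariate. Neuroserpin (Serpini1), an inhibitor of tissue plasminogen activator, gave -0.87, -2.24, -1.20, -1.46 and -0.22 against -1.78, -1.27, -1.96, -1.50 and -1.22 and was highest in mouse 517, with a difference of 0.35, or 0.89 with age as a covariate.

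**Figure D4:**
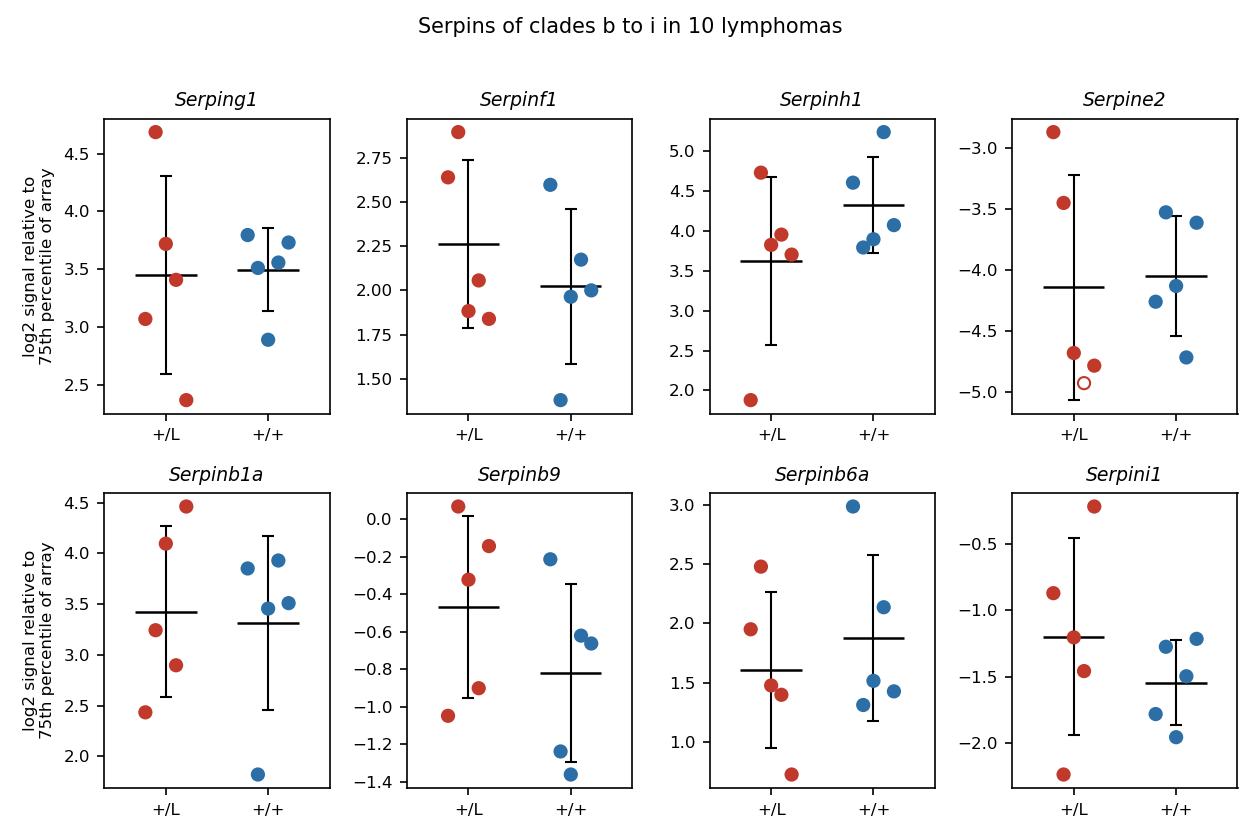
The same plot for 8 serpins of clades b to i, each on its own vertical scale. Groups overlap in all 8 panels; the open point of Serpine2 is not well above background, and the mean and SD are marked as lines and bars.

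Clade b protects cells from their own granule contents. Serpinb1a, which inhibits neutrophil elastase and cathepsin G, gave 2.43, 3.24, 4.09, 2.90 and 4.46 against 3.85, 1.82, 3.46, 3.93 and 3.51, with mouse 11 lowest. Serpinb9, the granzyme B inhibitor of cytotoxic lymphocytes, gave -1.05, 0.07, -0.32, -0.90 and -0.14 against -0.21, -1.24, -1.36, -0.62 and -0.66, spanning 1.43. Serpinb6a, which inhibits cathepsin G, gave 1.95, 2.48, 1.48, 1.40 and 0.73 against 2.98, 1.31, 1.52, 2.14 and 1.43, highest in mouse 40. A second Serpinb6a probe was detected on 0 arrays. In these 3 the groups overlapped. The differences of Serpinb1a, Serpinb9 and Serpinb6a were 0.11, 0.35 and -0.27, and with age as a covariate -0.45, -0.19 and -0.83. Of 18 serpin genes with 2 probes, 7 had differences of opposite sign in the pair, Serpinb9 and Serpinf1 among them.

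Groups overlapped in the further serpins described next. Serpina10, the protein Z-dependent inhibitor of factor Xa, gave -3.13, -2.30, -2.09, -1.74 and -3.07 against -1.92, -2.53, -2.11, -3.41 and -2.50, lowest in mice 17, 20 and 517. Serpina9 gave -2.99, -4.44, -2.79, -2.53 and -2.93 against -3.24, -3.14, -3.40, -2.96 and -1.54, lowest in mouse 866 and highest in mouse 19. Serpinb6b and Serpinb6c, relatives of Serpinb6a, differed by 0.14 ± 0.30 and -0.05 ± 0.34, and by -0.33 and -0.47 with age as a covariate. Serpinb1b and Serpinb1c, copies of Serpinb1a, were both lowest in mouse 11 by the probes detected on all arrays, as Serpinb1a was, at -3.30, -2.34 and 1.82, and all 3 were highest in mouse 517. The differences of those Serpinb1b and Serpinb1c probes were 0.31 and 0.24, and with age as a covariate -0.09 and -0.19. Serpinb8, the most widely detected clade b gene of chromosome 1, gave -2.75, -2.47, -2.85, -3.77 and -5.11 against -3.37, -3.39, -3.73, -3.18 and -2.76, a difference of -0.11, or -0.80 with age as a covariate. Serpinb10 (bomapin), a serpin of blood-forming cells, was well above background in 3 of 5 +/L and 2 of 5 +/+ tumours, at -4.46, -3.81, -4.01, -5.74 and -4.35 against -5.37, -7.59, -5.81, -5.13 and -3.50, and its difference of 1.01 was -0.29 with age as a covariate.

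Several clade b and a serpins were detected in 1 or a few tumours only, and those named next were chosen after their values were seen. On exactly 1 array 15 probes were well above background, 8 of them in mouse 20, 3 in mouse 23, 2 in mouse 866 and 1 each in mice 688 and 17. Serpinb11 read 2.43 in mouse 20 and between -8.01 and -5.47 elsewhere, and was not well above background anywhere else. Serpinb5 (maspin, an epithelial serpin), with -3.24, and Serpina6 (corticosteroid-binding globulin), with -2.63, were also well above background only in mouse 20. Serpinb3c, by a probe well above background on 7 of 10 arrays and so not limited to a few tumours, was -1.38 in mouse 20 and -5.14 to -4.08 in the others. In the same tumour all 10 of a list of epithelial genes chosen after seeing values were well above background (Krt8 3.90, Krt18 6.59 and Krt5 -0.63), against 3 to 8 elsewhere, and the list's summed level was 119, against 0.99 to 2.14. Krt8 and Krt18 were also in the mesothelial list, and in mouse 20 they carried most of the summed level of both lists. The array of mouse 20 also had the second highest lowest signal well above background, -3.84. The part of epithelial cells in these values was not tested.

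Other serpin probes read highest in mouse 23, whose array had the highest lowest signal well above background, -3.67. Serpinb13 read -0.88 there and between -8.08 and -5.85 elsewhere, and Serpinb9e -1.96 against -7.11 to -5.30. Serpinb12 was -1.84 in mouse 23, and it was well above background in 3 of 5 +/L and 0 of 5 +/+ tumours (bound 1.02-fold). Its other probe read -5.99 in mouse 23 and was well above background on 0 arrays. One probe of the pseudogene Serpina4-ps1 was -1.49 in mouse 23. The other probe of Serpina4-ps1 read -5.82 there and was well above background only in mouse 20. Serpinb2, a serpin of macrophages and epithelia, was well above background only in mouse 866, at -1.96 and -1.76 in its 2 probes.

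**Figure D5:**
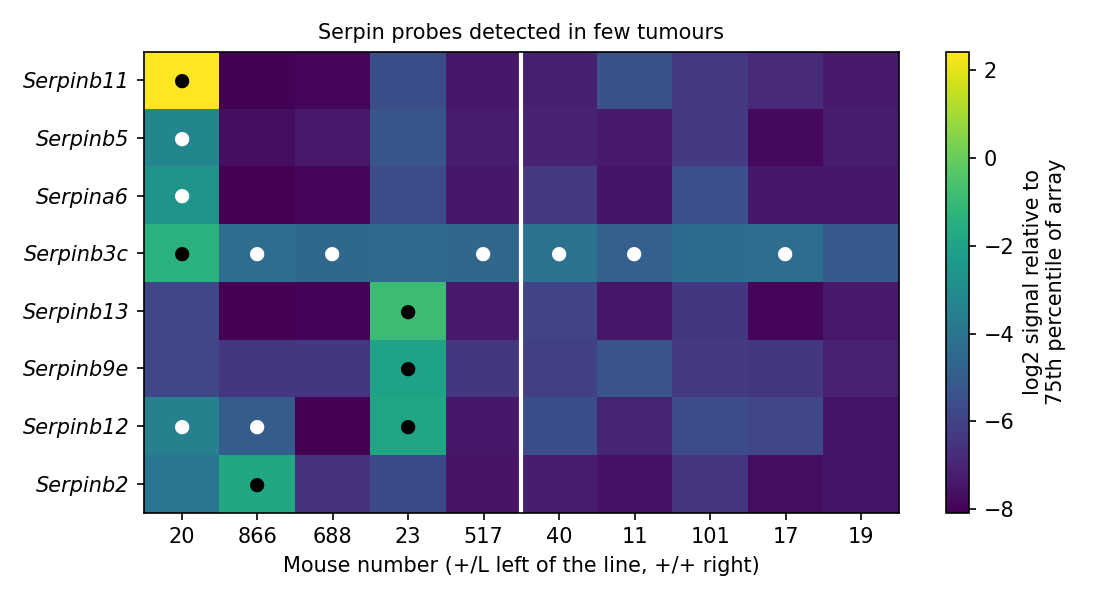
Colours give the log2 signal relative to the 75th percentile of the array for 8 serpin probes (rows) in 10 tumours (columns, mouse numbers), and dots mark values well above background. Rows are read across, not against each other. Serpinb11 reaches 2.43 in mouse 20 only, while the Serpinb3c probe was well above background on 7 of 10 arrays.

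No gene passed the test among the proteases that serpins inhibit and the collagens that Hsp47 binds. Of 36 genes kept from 47 listed, 0 passed an adjusted p of 0.05 in limma, with 22 higher and 14 lower in +/L (median difference 0.24). An unadjusted p under 0.05 in limma was found for 4 of the 36, beside 7.96% of all kept probes. Granzymes gave 2 higher and 2 lower of 4. All 3 neutrophil serine proteases and all 5 kept mast cell proteases read higher in +/L (medians 0.80 and 1.99), with overlapping groups. Among plasminogen activation genes 4 of 5 read lower, and of the coagulation and complement genes 6 of 7 read higher. Col4a1, a basement membrane collagen, was the only 1 of the 36 whose groups did not overlap, by a margin of 2.30 to 2.32. It was lower in +/L, as were 1.22% of all kept probes without overlap.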

How the data were processed

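The members and gene lists were chosen with earlier results of these data known. Each intensity was extracted from single-colour (Cy3) Agilent arrays by the authors using version 10.5.1.1 of Agilent Feature Extraction, and spatial and multiplicative detrending were applied, per the file headers; a flag per spot marks signals well above background, per the file headers. A deposited value table gives log2 values for these arrays, by a method not given in the sources used here; its column medians were 6.96 to 6.97. Here, processed signals were put on the log2 scale and each array's 75th percentile was subtracted, with outlier-flagged spots left out and spots of a probe averaged; 121 probes lacked a value on some array. The 26410 probes that 3 or more arrays showed well above background were compared with limma 3.58.1 (lmFit, eBayes) in R 4.3.3, Benjamini-Hochberg over all of them, with no covariate. No spot was saturated. The number of arrays limits the precision. The labels do not say whether tumours came from related animals, and p-values measure the spread between these samples. The script was tested on simulated data. Tables used pandas 2.3.3 and numpy 2.4.6. For a probe not well above background in any array of 1 group, a bound set the brighter group's mean against the mean of, per dim array, the higher of its lowest signal well above background and the probe's own value. Serpins named are all kept Serpina1 and Serpina3 probes, the 2 kept probes of widest range in each other clade, 1 probe each of 11 listed genes, and probes whose groups do not overlap; others were chosen after their values were seen. All 74 probes kept the file's gene names; promoter sequences are RefSeq's (GRCm38.p6), and probe coordinates are mm9. One member is not reported here.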

Additional observations from a re-analysis of the deposited data

Results flagged for a closer look

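Among the serpin probes named by rule, 2 of 52 groups of 5 had 1 tumour far from the others, where chance flags about 1 in 20. Serpina3c in +/L mouse 866, the highest of 5, read -1.23, with the nearest at -2.76. Serpinb1a in +/+ mouse 11, the lowest of 5, read 1.82, with the nearest at 3.46. Of the probes named after their values were seen, a pair stood apart in the same way, and that chance rate does not apply to them, because they were picked for 1 high tumour. Serpinb11 in +/L mouse 20 read 2.43, with the nearest +/L tumour at -5.55. Serpinb9e in +/L mouse 23 read -1.96, with the nearest at -5.84.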

How the results depend on the processing

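The comparison was run under 20 alternatives. The count of target protease and partner genes past an adjusted p of 0.05 in limma was 0 in every one. The number of serpin probes whose groups do not overlap was 5, and it was 4 when only probes detected on all 10 arrays were kept, which leaves out Serpina3c. Without single replicates it ranged from 5 to 6, Serpina3g being the sixth without mouse 866. Leaving out tumours cannot make separate groups overlap, so these runs could not lower the count. The fits with age or slide counted overlap on unadjusted values and could not change it. The count of serpin probes detected on all arrays was 25, and 25 to 32 without a replicate or with the software's other detection flag. Of 26 probes named by rule, 13 kept the sign of their difference under all 20 alternatives, the 5 described above among them, and 13 did not. Leaving out tumours could not turn the sign of those 5, because their groups do not overlap. Serpina3c ranged from 0.45 to 3.46 and Serpina3m from 0.88 to 2.39. No paired analysis was possible because the groups share no replicate numbers. Background limits the dim probes: in +/+ tumours Serpina3c was well above background in 1 of 5. The median difference of all probes tested lay between -0.05 and 0.18, the highest with no filter on dim probes.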
